A study of Mus musculus with 46 samples.

Results

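The genes described here are 9 nuclear receptors and coregulators of oxidative metabolism: the estrogen-related receptors Esrra, Esrrb and Esrrg, the thyroid hormone receptors Thra and Thrb, the PGC-1 coactivators Ppargc1a and Ppargc1b, the corepressor Nrip1 and the muscle regulator Perm1. The rule for this part lists them by name, as receptors and coregulators that act on shared sets of metabolic genes. All 9 were measured in both experiments, among 17514 genes in the gastrocnemius and 16987 in the spinalis, of which 16642 were in both tables. Estrogen-related receptors are orphan nuclear receptors that bind an extended AGGTCA element and, with PGC-1 coactivators, raise transcription of genes for mitochondrial respiration and fatty acid oxidation. Thyroid hormone receptors bind related elements, usually as dimers with retinoid X receptors, and repress or activate their targets depending on the hormone. In muscle, Perm1 is induced by the PGC-1 and ERR pathway and acts within it, while Nrip1 (RIP140) opposes oxidative gene programmes.

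RNA was sequenced from muscles of C57BL6 mice that were wild-type (WT) or lacked Actn3 (KO), the gene for the fast-fibre protein α-actinin-3, to ask how loss of α-actinin-3 alters the response to androgen. In the first experiment, male mice were castrated (ORX) or sham-operated (SHAM) at 8 to 10 weeks of age and the gastrocnemius was taken 12 weeks later. In the second, female mice of 4 to 5 weeks received an implant with 10 mg dihydrotestosterone (DHT) or an empty one (Empty), and the spinalis was taken after 6 weeks. The knockout affects the whole animal from birth, so genotype comparisons include any lifelong adaptation. The groups WT_SHAM, WT_ORX and KO_SHAM had 6 libraries each and KO_ORX had 5, while WT_DHT and KO_DHT had 6 each and WT_Empty and KO_Empty had 5 each. A further KO_ORX sample was not analysed here, which leaves 45 of 46 labelled samples. The sample titles carry only replicate numbers, so the p-values measure the spread among these samples. Because the experiments differ in muscle, sex, age and treatment, their values are set side by side and no test was made across them.

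Library totals, in units of 1e6 counts, ran from 43.4 to 50.3 (median 47.1) in WT_SHAM and from 39.9 to 55.4 (median 45.6) in WT_ORX. They ran from 29.5 to 37.5 (median 34.3) in KO_SHAM and from 26.7 to 48.5 (median 41.6) in KO_ORX. Every KO_SHAM library was smaller than every WT_SHAM library. In the spinalis the totals were 37.3 to 51.2 (median 47) in WT_Empty, 34.8 to 53.9 (median 52) in WT_DHT, 42.5 to 47.8 (median 44.1) in KO_Empty and 34.9 to 51.7 (median 44.2) in KO_DHT. Levels are given as CPM, counts per 1e6 counts of a library, scaled by TMM, a normalization that assumes most genes do not differ between libraries. A gene was called changed at an adjusted p (q) of at most 0.01 in edgeR's quasi-likelihood test, or 0.05 for an interaction, with Benjamini-Hochberg adjustment over all genes of a table.

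Actn3 matched the genotype labels in every library. In the gastrocnemius it lay between 5977 and 9617 CPM in WT and between 34.3 and 54.7 CPM in KO libraries, and in the spinalis between 6164 and 10353 CPM in WT and between 56.6 and 83.2 CPM in KO libraries. Muscle markers were read as a check of the tissue label: the 7 skeletal muscle genes Acta1, Ckm, Myh4, Myh1, Ttn, Des and Mb summed to at least 144244 CPM in every group, with Ttn the most abundant. Both muscles were dominated by fast fibres, with medians for the 8 fast fibre markers between 91800 and 132607 CPM and for the 9 slow and oxidative markers between 2608 and 4305 CPM. The most abundant markers of these lists were Myh4 and Myh2.

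Levels between genes were compared per length, as CPM per kilobase of merged exons (RPKM). Perm1 had the highest level of the members in both muscles, 38.1 ± 6.8 RPKM in the gastrocnemius (SD, n = 23) and 47.4 ± 8.4 in the spinalis (SD, n = 22). Esrra came next at 15 ± 2.5 and 17.4 ± 3.3 RPKM, followed by Thra at 8.03 ± 0.66 and 7.61 ± 0.99 RPKM. By merged exon length, the lowest Perm1 library of each muscle lay above the highest Esrra library, and the lowest Esrra library above the highest Thra library. Nrip1, Thrb and Ppargc1a had close levels in the gastrocnemius, with means of 5.13, 5.03 and 4.87 RPKM, and did not differ beyond their spread. In the spinalis, the same 3 genes had means of 6.47, 4.09 and 3.85 RPKM, and the ranges of Thrb and Ppargc1a overlapped. Esrrg and Ppargc1b exchanged places, with means of 2.96 and 1.78 RPKM in the gastrocnemius against 1.95 and 2.1 RPKM in the spinalis, and their ranges overlapped in both muscles. In the spinalis, Esrrg had the lower mean in WT_Empty (1.5 against 1.93 RPKM) and KO_Empty (2.26 against 2.58 RPKM) only. The means were close in WT_DHT (1.78 and 1.73 RPKM) and KO_DHT (2.24 and 2.22 RPKM). Esrrb was the least abundant receptor, with a mean of 0.464 RPKM in the gastrocnemius and 0.438 RPKM in the spinalis, although no library had a count of 0. The order of the means within each muscle was the same when the length of the longest transcript was used. With that length the mean of Esrra was 26.5 RPKM in the gastrocnemius and 30.7 RPKM in the spinalis. Its libraries then overlapped with those of Perm1 in both muscles.

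**Figure D1:**
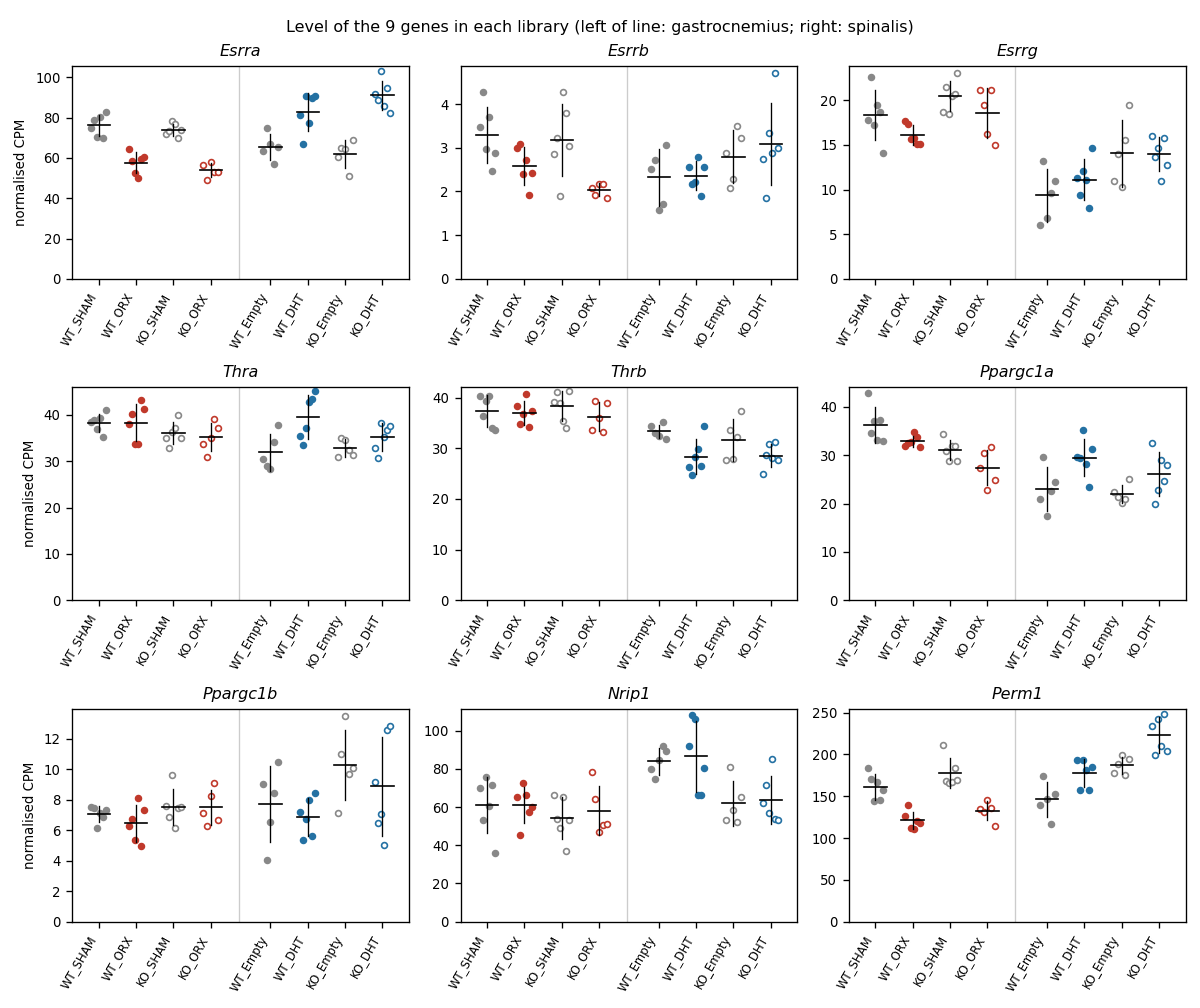
Normalised CPM of the 9 genes (vertical axis, from 0) in each library of the 8 groups (horizontal axis), with filled points for WT, open points for KO, grey for SHAM and Empty, red for ORX, blue for DHT, a line at each group mean and a vertical line of 1 SD to each side. Esrra lies between 69.8 and 82.6 CPM in WT_SHAM and between 50.1 and 64.3 CPM in WT_ORX, and Perm1 between 199 and 248 CPM in KO_DHT and between 157 and 193 CPM in WT_DHT.

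Castration was compared with sham surgery to ask what loss of testicular androgen did to these genes in WT muscle. Esrra fell by 24.3% and Perm1 by 24.9%, and the other 7 genes did not pass the test. Esrra, the ERR most tied to mitochondrial genes, ranged from 69.8 to 82.6 CPM in WT_SHAM (median 77) and from 50.1 to 64.3 CPM in WT_ORX (median 59). All 6 WT_ORX libraries lay below all 6 WT_SHAM libraries. Perm1, whose protein promotes oxidative gene expression in muscle, ranged from 144 to 184 CPM in WT_SHAM (median 162) and from 111 to 139 CPM in WT_ORX (median 119), again without overlap. The log2 fold change of Esrra was −0.40 (SE 0.058, 95% interval −0.52 to −0.28, q = 2.0e-05) and that of Perm1 was −0.41 (SE 0.072, interval −0.56 to −0.27, q = 2.5e-04). These 2 of 9 genes compare with 5.45% of all genes called in either direction, 2.04% higher and 3.41% lower. Under scaling by library size alone, the higher share of the calls moved from 37.5% to 54.4%, whereas Esrra and Perm1 were lower under either scaling.

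The other ERR genes overlapped between sham and castrated WT mice. Esrrb ranged from 2.47 to 4.27 CPM in WT_SHAM and from 1.93 to 3.09 CPM in WT_ORX, a log2 fold change of −0.35 (q = 0.18). Esrrg, a receptor of oxidative fibres, ranged from 14.1 to 22.6 CPM and from 15.1 to 17.7 CPM in the same groups, a log2 fold change of −0.19 (q = 0.24). The thyroid receptors were close to even, with Thra at mean levels of 38.3 CPM in both groups and Thrb at 37.3 and 37 CPM. Ppargc1a, which encodes PGC-1α, had mean levels of 36.3 CPM in WT_SHAM and 32.9 CPM in WT_ORX, and its 95% interval for the log2 fold change ran from −0.29 to 0.0027. Ppargc1b gave −0.13 (interval −0.37 to 0.11) and Nrip1 gave 0.0014 (interval −0.32 to 0.32) on the log2 scale.

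The same comparison in KO mice addressed castration without α-actinin-3. Esrra and Perm1 were again the members called, both lower. Esrra ranged from 69.8 to 78.2 CPM in KO_SHAM (median 73.7), and KO_ORX libraries 1 to 5 had 56.4, 48.8, 57.9, 53.2 and 52.9 CPM. Perm1 ranged from 166 to 211 CPM in KO_SHAM (median 169), and the 5 KO_ORX libraries had 135, 131, 146, 136 and 115 CPM. For both genes every castrated library lay below every sham library. The log2 fold change of Esrra was −0.46 (SE 0.061, interval −0.59 to −0.33, q = 1.3e-05) and that of Perm1 was −0.42 (SE 0.076, interval −0.58 to −0.27, q = 5.1e-04). The 2 of 9 genes called stand beside 5.57% of all genes, 1.99% higher and 3.58% lower. Library-size scaling moved the median log2 fold change of all genes from 0.014 to 0.12 and the higher share of the calls from 35.7% to 78.6%; under it Esrra and Perm1 remained called and lower.

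Esrrb had the largest fitted change of the members in KO mice but did not pass the threshold. It ranged from 1.9 to 4.28 CPM in KO_SHAM, and the KO_ORX libraries had 2.09, 1.93, 2.17, 2.18 and 1.85 CPM. The groups overlapped, with a log2 fold change of −0.64 (interval −0.99 to −0.29, q = 0.015). Esrrb passed 0.01 with DESeq2 (q = 0.0031) and without KO_SHAM library 3 (−0.75, q = 0.003), but had q = 0.038 with limma-voom, 0.036 with library-size scaling, 0.037 in a fit of the compared groups only and 0.067 without KO_ORX libraries 1 and 2. Ppargc1a gave −0.18 (interval −0.34 to −0.027, q = 0.13), or −0.073 (q = 0.55) with library-size scaling, and Esrrg, Thra, Thrb, Ppargc1b and Nrip1 had log2 fold changes between −0.14 and 0.10.

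Tests of the interaction asked whether the response to castration differed between genotypes. No member passed 0.05 in edgeR's quasi-likelihood test, none had an unadjusted p under 0.05, and DESeq2 and limma-voom also called 0. Among all genes, 0.0228% were called. The interaction of Esrra was −0.057 on the log2 scale (interval −0.23 to 0.12, q = 0.87) and turned to 0.0078 with library-size scaling. That of Perm1 was −0.011 (interval −0.22 to 0.20, q = 0.99) and turned to 0.052 with library-size scaling. For Esrrb, with its low counts, the interval ran from −0.77 to 0.18, wide enough to include a difference as large as the castration change itself.

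**Figure D2:**
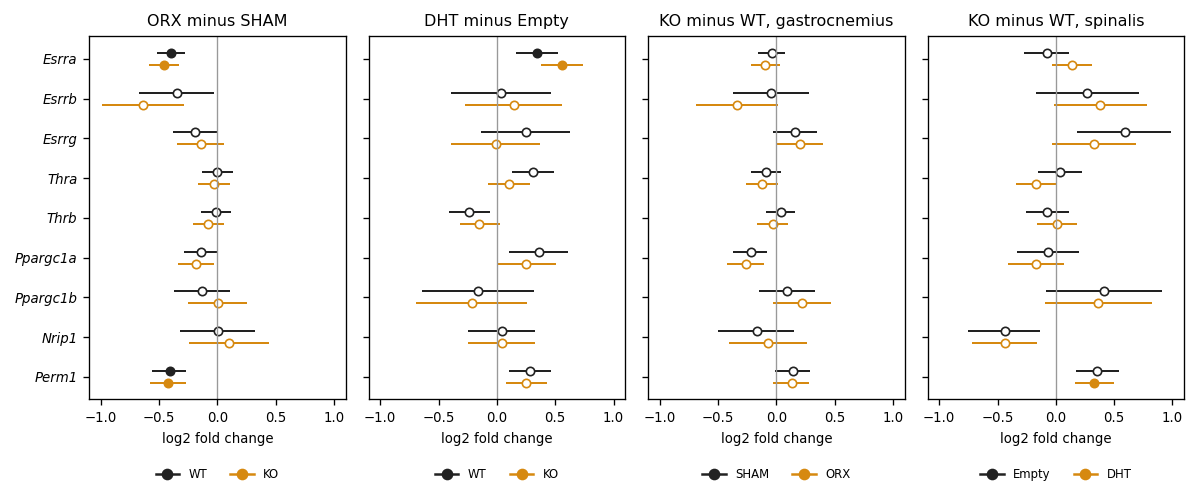
Fitted log2 fold changes of the 9 genes (horizontal axis) in the 8 treatment and genotype comparisons, with lines for 95% intervals, filled points for q of at most 0.01, black for WT, SHAM or Empty and orange for KO, ORX or DHT. Esrra and Perm1 are filled with castration in both genotypes (−0.40 to −0.46), Esrra with DHT in both genotypes (0.34 and 0.56) and Perm1 for KO against WT under DHT (0.33).

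Known target genes of ERR and PGC-1 were followed as a list of 28, all of them measured. The list was chosen with earlier results of these data known, so its counts describe it and are no independent test. With castration, 9 of the 28 fell and 0 rose in WT (median log2 fold change −0.20), and 13 fell and 0 rose in KO mice (median −0.32), against medians over all genes of 0.013 and 0.014 and shares of all genes called lower of 3.41% and 3.58%. At an unadjusted p under 0.05 the list had 19 genes in WT and 22 in KO, and neither DESeq2 nor limma-voom called any of it higher. Ckmt2, the sarcomeric mitochondrial creatine kinase, ranged from 910 to 1149 CPM in WT_SHAM and from 546 to 685 CPM in WT_ORX. In KO mice Ckmt2 ranged from 1072 to 1274 CPM with sham surgery, and the castrated libraries had 783, 820, 848, 638 and 622 CPM. The groups did not overlap in either genotype, with log2 fold changes of −0.63 (q = 2.3e-06) and −0.67 (q = 4.0e-06).

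The targets that fell included genes of fatty acid oxidation and of the respiratory chain, which were not tested as separate groups. Sdhb, of complex II of the respiratory chain, was not called in either genotype, with log2 fold changes of 0.091 in WT and −0.10 in KO. Acadvl, the very long chain acyl-CoA dehydrogenase, fell by 0.44 on the log2 scale in WT (q = 1.5e-04) and by 0.37 in KO (q = 0.002), where the call was lost with library-size scaling (−0.27, q = 0.02) and without KO_ORX library 5 (−0.32, q = 0.01). Acadm, its medium chain counterpart, fell by 0.29 in WT (q = 0.0042) and by 0.44 in KO (q = 1.3e-04), and Uqcrc1, a core subunit of complex III, by 0.24 in WT (q = 0.0049) and by 0.41 in KO (q = 3.5e-05). Both WT calls were lost with library-size scaling (q = 0.017 and 0.016) and each was kept in 18 of 23 fits that left out 1 library. The fatty acid binding gene Fabp3 gave −0.74 in KO (q = 0.0027), but that call was lost without KO_ORX library 4 (−0.66, q = 0.013) or 5 (−0.69, q = 0.011). The call of the myoglobin gene Mb (−0.50, q = 0.0092 in WT and −0.56, q = 0.0055 in KO) was kept in 14 of 23 fits that left out 1 library in WT and in 18 in KO, and in WT reached q = 0.029 without WT_ORX library 6 (−0.45). Scaling by library size left 3 target genes called in WT and 6 in KO, all lower. With KO_ORX libraries 1 and 2 both left out, a choice made after seeing the data, 8 targets were called lower in KO and 0 higher.

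Cell composition markers were measured beside these changes, since in bulk muscle fewer cells of a type and less RNA per cell cannot be told apart. The 9 slow and oxidative fibre markers had 0 called with castration by edgeR in either genotype, with median log2 fold changes of 0.30 and 0.23; over all 8 treatment and genotype comparisons 1 of 72 values was called, lower, where 3.49% of the values of all genes were; 22 had an unadjusted p under 0.05, and DESeq2 called 2 and limma-voom 3. Of the 8 fast fibre markers, 2 rose and 1 fell in WT and 3 fell in KO. Among all genes, 2.04% were called higher and 3.41% lower in WT, and 1.99% and 3.58% in KO. Myh1, the myosin of IIX fibres, gave −0.61 in both (q = 0.005 and 0.0074), calls kept in 18 and 17 of 23 fits that left out 1 library. Fibroblast markers, with Dcn the most abundant, summed to between 1558 and 2011 CPM in WT_ORX and to 3349, 2462, 1431, 1821 and 1633 CPM in the KO_ORX libraries. The tendon markers Tnmd and Scx summed to 58.3, 53.5, 23.8, 29.7 and 20.5 CPM in the same KO_ORX libraries. Libraries 1 and 2 were thus the highest for both lists, and they also had the smallest count totals of KO_ORX. Without them Esrra gave −0.44 (q = 3.3e-04) and Perm1 −0.43 (q = 0.0052) with castration in KO mice. The part of fibre type in these results was not tested.

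Genotype was compared within the sham and within the castrated mice; these comparisons share libraries with the castration comparisons. No member was called in either. In sham mice, edgeR called 0 of 9, with 1 gene at an unadjusted p under 0.05, and DESeq2 and limma-voom also called 0, while 5.30% of all genes were called, 2.48% higher and 2.82% lower. In castrated mice, edgeR, DESeq2 and limma-voom each called 0 of 9, with 2 genes at an unadjusted p under 0.05 in edgeR, against 3.80% of all genes, 1.07% higher and 2.73% lower. The higher share among called genes in castrated mice was 28.2%, and 46.9% with library-size scaling.

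Ppargc1a came closest to the threshold in both genotype comparisons. It ranged from 33 to 42.8 CPM in WT_SHAM (median 35.8) and from 28.7 to 34.3 CPM in KO_SHAM (median 31.4). It ranged from 31.7 to 34.7 CPM in WT_ORX (median 32.7), and the KO_ORX libraries had 27.4, 30.4, 22.8, 31.7 and 24.9 CPM. KO libraries were mostly the lower ones, though the groups overlapped in both settings. The log2 fold changes were −0.22 (interval −0.37 to −0.077, q = 0.044) and −0.26 (interval −0.42 to −0.11, q = 0.029), and the second reached q = 0.0094 without KO_ORX library 4 (−0.32) but had q = 0.096 with library-size scaling (−0.22). Perm1 gave 0.14 (interval −0.0082 to 0.29) and 0.13 (interval −0.026 to 0.28), and Esrra gave −0.041 (interval −0.16 to 0.078) and −0.098 (interval −0.22 to 0.027).

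Of the target genes, 4 rose and 0 fell in KO against WT sham mice: Idh3b and Idh3a, subunits of the mitochondrial isocitrate dehydrogenase, Uqcrc1 and Sod2, the mitochondrial superoxide dismutase. Idh3b had the largest of these changes, 0.32 on the log2 scale (q = 1.5e-04), and the list median was 0.14 against −0.0069 over all genes, of which 2.48% were called higher. The 9 slow and oxidative fibre markers had medians of 0.21 for KO against WT in sham and 0.18 in castrated mice. In each, 8 of them were positive and edgeR called 0. Idh3a (0.18, q = 0.0039) was called in 19 of 23 fits that left out 1 library, and not with library-size scaling (0.16, q = 0.014). The call of Uqcrc1 (0.25, q = 0.0039) was lost without any of 4 libraries, WT_SHAM 3 (q = 0.013), 4 (q = 0.011) and 5 (q = 0.014) and KO_SHAM 2 (q = 0.01). In castrated mice edgeR called 0 of 28 (median 0.036), with 5 at an unadjusted p under 0.05 and 1 lower by each of DESeq2 and limma-voom. The castration response of the targets had 0 of 28 called as different between genotypes by edgeR (median −0.12), with 6 at an unadjusted p under 0.05, 1 called by DESeq2 and 0 by limma-voom.

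DHT was compared with an empty implant in WT females to ask what added androgen did. Esrra was the member called, and it rose. The WT_Empty libraries 14, 4, 7, 35 and 49, named by the numbers in their column headings, had 63.4, 74.6, 66.8, 56.8 and 65.6 CPM of Esrra, and WT_DHT ranged from 66.9 to 90.8 CPM (median 85.3). The groups overlapped through WT_Empty library 4 (74.6 CPM) and WT_DHT library 5 (66.9 CPM). The log2 fold change was 0.34 (SE 0.087, interval 0.16 to 0.52, q = 0.0073), and 1 of 9 members called stands beside 11.3% of all genes, 6.63% higher and 4.64% lower. The share is near the background, and the call was close to the threshold: it was lost with library-size scaling (0.26, q = 0.013), in a fit of the compared groups only (0.33, q = 0.017) and in 10 of 22 fits that left out 1 library. Those libraries were WT_Empty 14, 7, 35 and 49 (q = 0.022, 0.016, 0.03 and 0.018), WT_DHT 15, 8, 39 and 50 (q = 0.012, 0.024, 0.021 and 0.022) and KO_DHT 16 and 6 (q = 0.01 for each, above the threshold before rounding). Library-size scaling moved the higher share of the calls from 58.8% to 43.6%.

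Other members shifted with DHT in WT by amounts that missed the threshold. Thra, the main thyroid receptor of muscle, had 30.4, 28.9, 28.4, 34.1 and 37.9 CPM in WT_Empty and ranged from 33.5 to 45.1 CPM in WT_DHT. The groups overlapped, with a log2 fold change of 0.31 (q = 0.013), which passed with DESeq2 (q = 0.0067) and without WT_Empty library 49 (0.37, q = 0.0033), WT_DHT library 15 (0.34, q = 0.0097) or WT_DHT library 5 (0.35, q = 0.0047). It was further from the threshold with library-size scaling (0.23, q = 0.062) and in a fit of the compared groups only (q = 0.042). Perm1 had 140, 174, 147, 117 and 153 CPM in WT_Empty and ranged from 157 to 193 CPM in WT_DHT (median 183). Its log2 fold change was 0.28 (q = 0.024), with 0.35 (q = 0.0056) without WT_Empty library 4 and 0.22 (q = 0.095) with library-size scaling. Ppargc1a gave 0.36 (interval 0.10 to 0.61, q = 0.046), and Thrb pointed the other way at −0.24 (interval −0.41 to −0.061, q = 0.054), with q = 0.0081 (−0.30) without WT_DHT library 50 and up to q = 0.12 when another library was left out. Esrrg gave 0.25 (interval −0.14 to 0.63), Ppargc1b −0.16 (interval −0.64 to 0.32), Nrip1 0.042 (interval −0.25 to 0.33) and Esrrb 0.032 (interval −0.39 to 0.46).

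Esrra also rose with DHT in KO females, and here the groups did not overlap. KO_Empty libraries 17, 33, 64, 61 and 62 had 60.3, 65.1, 64.2, 51 and 68.9 CPM of Esrra, and KO_DHT ranged from 82.3 to 103 CPM (median 90.4). Esrra had a log2 fold change of 0.56 (SE 0.088, interval 0.38 to 0.74, q = 1.5e-04). This is 1 of 9 members, where 4.62% of all genes were called, 2.86% higher and 1.75% lower. Perm1 had 178, 189, 199, 175 and 194 CPM in KO_Empty and ranged from 199 to 248 CPM in KO_DHT; the groups touched at 199 CPM, with a log2 fold change of 0.25 (interval 0.075 to 0.43, q = 0.06). Ppargc1a gave 0.25 (interval −0.0018 to 0.51), Thra 0.10 (interval −0.076 to 0.28) and Thrb −0.15 (interval −0.32 to 0.024). The other 4 members had log2 fold changes between −0.21 and 0.15.

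No member had a called difference in the DHT response between genotypes. In edgeR's test 0 of 9 passed 0.05 and 0 had an unadjusted p under 0.05, with 0 called by DESeq2 and 0 by limma-voom, while 3.24% of all genes were called. Esrra gave 0.22 (interval −0.034 to 0.47, q = 0.42), Thra −0.21 (interval −0.46 to 0.044, q = 0.45) and Perm1 −0.027 (interval −0.28 to 0.22, q = 0.95). The value of Perm1 turned to 0.0079 with library-size scaling.

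Among the targets, 5 of 28 rose and 1 fell with DHT in WT (median 0.13), and 6 rose and 0 fell in KO (median 0.23), against medians over all genes of −0.0063 and −0.011 and shares called higher of 6.63% and 2.86%. Ckmt2 had 558, 732, 609, 581 and 619 CPM in WT_Empty and ranged from 863 to 1068 CPM in WT_DHT. It had 693, 695, 859, 807 and 892 CPM in KO_Empty and ranged from 1106 to 1486 CPM in KO_DHT. Within each genotype every DHT library lay above every Empty library, with log2 fold changes of 0.68 (q = 2.3e-06) in WT and 0.73 (q = 3.2e-06) in KO. Mb rose in WT by 0.79 (q = 5.0e-04) and Vegfa, the angiogenic growth factor gene, by 0.36 (q = 0.0014), the latter not called with library-size scaling (0.30, q = 0.018). Uqcrc1 was called in WT (0.27, q = 0.0089) and in KO (0.46, q = 1.5e-04), and so was Slc25a4, the muscle ADP/ATP carrier (0.29, q = 0.0068 and 0.40, q = 0.0012). Their WT calls were kept in 5 and 12 of 22 fits that left out 1 library and lost with library-size scaling (q = 0.033 and 0.017). Sod2 rose in KO by 0.34 (q = 1.2e-04). Sdhb, the iron-sulfur subunit of complex II, was the target that fell in WT (−0.32, q = 0.0011). With library-size scaling the WT counts were 2 higher and 3 lower, so the balance of directions in WT depended on the scaling, whereas in KO they were 4 higher and 0 lower. At an unadjusted p under 0.05 the list had 17 genes in KO, and DESeq2 called 8 higher and 0 lower.

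Called targets whose response to DHT differed between genotypes were Sdhb (0.41, q = 0.012) and Idh3b (0.33, q = 0.025), both more positive in KO; Idh3b was called in 17 of 22 fits that left out 1 library and had 0.28 (q = 0.061) without WT_Empty library 4. Sdhb was between 336 and 419 CPM in WT_Empty and between 282 and 309 CPM in WT_DHT, without overlap. In KO it was between 343 and 448 CPM in KO_Empty and between 377 and 416 CPM in KO_DHT, where the groups overlapped.

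Markers of other cells varied widely among the spinalis libraries. WT_DHT library 5, the lowest of its group for Esrra, Thra and Thrb, had the highest tendon (43 CPM) and fibroblast (2588 CPM) sums of WT_DHT. Its skeletal muscle sum (189061 CPM) was the lowest of WT_DHT. The 9 slow and oxidative fibre markers had medians of −0.99 in WT and −1.56 in KO with DHT; edgeR called 0 in WT and 1 in KO, Tpm3 (−1.47, q = 0.0089), which encodes slow tropomyosin and was called in 9 of 22 fits that left out 1 library. Myh7, the slow myosin heavy chain, ranged from 115 to 657 CPM in WT_Empty and from 35.6 to 292 CPM in WT_DHT, and from 288 to 726 CPM in KO_Empty and from 54.6 to 355 CPM in KO_DHT. The brown adipocyte markers Ucp1, Cidea and Elovl3, of which Ucp1 was the most abundant, summed to 43.8, 17.5, 1.06, 25 and 45.3 CPM in WT_Empty, to between 1.19 and 43.9 CPM in WT_DHT and to 12.1, 7.58, 52.9, 6.09 and 16.6 CPM in KO_Empty. They summed to 225 CPM in KO_DHT library 63 and to between 1.21 and 3.94 CPM in the other KO_DHT libraries. Brown fat itself uses ERR and PGC-1 genes, and library 63 had 82.3 CPM of Esrra, the lowest of KO_DHT, 204 CPM of Perm1 and 12.8 CPM of Ppargc1b, the highest of KO_DHT. KO_DHT library 65 had a similar 12.6 CPM of Ppargc1b with a brown adipocyte sum of 1.63 CPM. Without library 63, Esrra with DHT in KO gave 0.59 (q = 1.7e-04) and Ppargc1b moved from −0.21 to −0.35 (q = 0.37). The parts of slow fibres and of brown fat in these results were not tested.

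Genotype in the spinalis was compared without and with DHT, using the same libraries as the DHT comparisons. Perm1 had the lowest q of the members in both settings, but not the largest change in size. Larger fitted changes, none of them called, were found for Esrrg, Nrip1 and Ppargc1b without DHT and for Nrip1, Esrrb and Ppargc1b with it. The 5 KO_Empty libraries of Perm1, at 175 to 199 CPM, all lay above the 5 WT_Empty libraries, at 117 to 174 CPM. The share of all genes without overlap is not given here for any comparison. Perm1 had a log2 fold change of 0.35 (SE 0.09, interval 0.17 to 0.54, q = 0.013), which missed the threshold. It passed with DESeq2 (q = 0.0047), with library-size scaling (0.40, q = 0.0073) and without WT_Empty library 4 (0.43, q = 0.0039), but had q = 0.049 in a fit of the compared groups only. In the Empty groups edgeR called 0 of 9 members, with 3 at an unadjusted p under 0.05, DESeq2 called 1 and limma-voom 0, against 4.25% of all genes, 1.75% higher and 2.50% lower. The higher share of called genes moved from 41.3% to 52.9% with library-size scaling.

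Under DHT, Perm1 was higher in KO, and this passed the test. All 6 KO_DHT libraries, from 199 to 248 CPM (median 222), lay above all 6 WT_DHT libraries, from 157 to 193 CPM (median 183). The log2 fold change was 0.33 (SE 0.082, interval 0.16 to 0.50, q = 0.0055). The 1 of 9 members called compares with 11.6% of all genes, 5.13% higher and 6.51% lower, a share near the background; with library-size scaling the higher share of the calls moved from 44.1% to 65.3%. The call was lost without WT_DHT library 5 (q = 0.016), 34 (q = 0.011) or 39 (q = 0.017), or KO_DHT library 16 (q = 0.013), 25 (q = 0.016) or 65 (q = 0.018), with fold changes from 0.29 to 0.34.

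Nrip1 was on the lower side in KO spinalis without passing the threshold. WT_Empty libraries had 79.8, 74.5, 84.7, 92.1 and 89.2 CPM, and KO_Empty libraries had 53.1, 80.9, 58.5, 52 and 65.4 CPM. The groups overlapped only through KO_Empty library 33. With DHT, Nrip1 ranged from 66.3 to 108 CPM in WT and from 53.2 to 85.4 CPM in KO. The log2 fold change was −0.44 in both settings (q = 0.063 without and 0.023 with DHT), and the second passed with DESeq2 (q = 0.0075) and without WT_DHT library 39 (−0.50, q = 0.0096) or KO_DHT library 40 (−0.54, q = 0.0053). With library-size scaling it was −0.37 (q = 0.089), and without KO_DHT library 63 it was −0.39 (q = 0.059). Esrrg had 6.04, 13.2, 6.86, 9.56 and 11 CPM in WT_Empty and 10.9, 14, 10.3, 15.5 and 19.5 CPM in KO_Empty, which overlapped, with a log2 fold change of 0.59 (interval 0.18 to 0.99, q = 0.059). Esrra gave −0.079 without DHT (interval −0.27 to 0.11) and 0.14 with it (interval −0.03 to 0.31), or 0.23 (q = 0.018) with library-size scaling. The remaining 5 members lay between −0.074 and 0.41 without DHT and between −0.17 and 0.38 with it, none of them called. The 9 slow and oxidative fibre markers had a median of 0.55 for KO against WT without DHT, all 9 positive, and 0.001 with it; edgeR, DESeq2 and limma-voom called 0 in either, with 0 at an unadjusted p under 0.05.

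Of the targets, 0 rose and 1 fell in KO against WT without DHT, and 8 rose and 1 fell with DHT, with medians of 0.078 and 0.15, beside 1.75% of all genes higher and 2.50% lower without DHT and 5.13% and 6.51% with it. In the Empty groups 9 had an unadjusted p under 0.05, DESeq2 called 3 higher and 2 lower, and limma-voom called 0 higher and 1 lower. With DHT, Idh3b gave 0.52 (q = 2.6e-07), Sdhb 0.45 (q = 1.1e-05), Uqcrc1 0.43 (q = 5.5e-05) and Ckmt2 0.40 (q = 8.7e-04). The gene that fell was Slc2a4, which encodes the insulin-responsive glucose transporter GLUT4, both without DHT (−0.43, q = 0.0029) and with it (−0.32, q = 0.006), calls kept in 19 and 13 of 22 fits that left out 1 library. Uqcrc1 ranged from 712 to 802 CPM in KO_DHT and from 496 to 606 CPM in WT_DHT, without overlap.

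**Figure D3:**
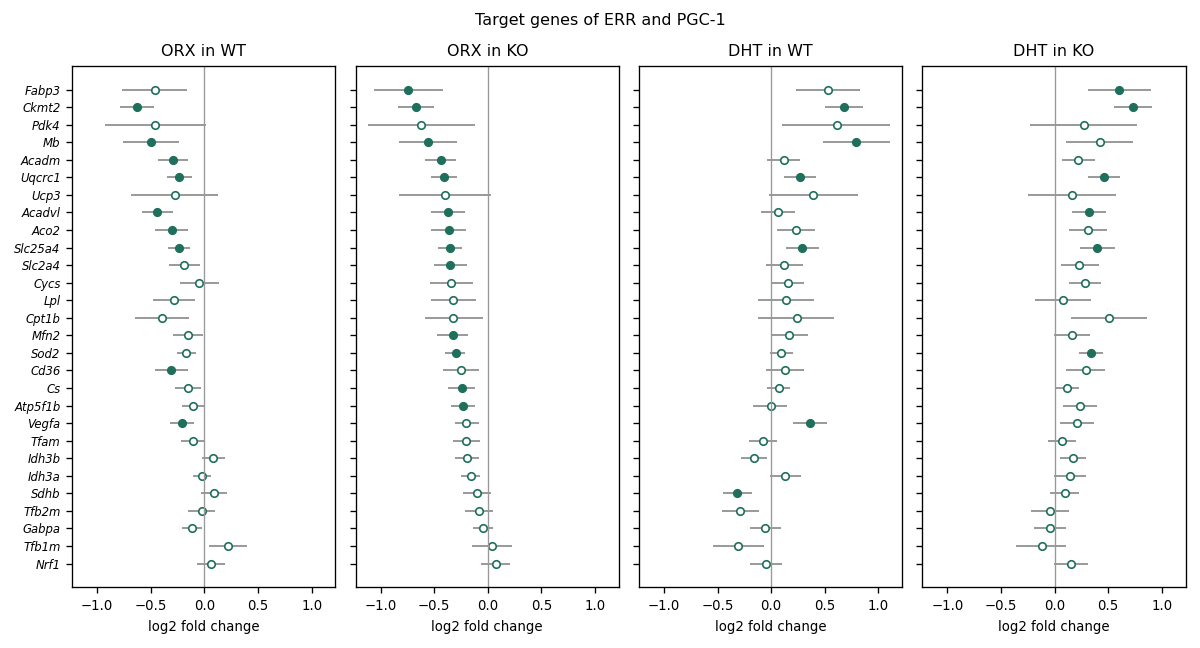
Fitted log2 fold changes of the 28 target genes of ERR and PGC-1 with castration in the gastrocnemius and with DHT in the spinalis, with lines for 95% intervals and points filled where q was at most 0.01. With castration the median was −0.20 in WT and −0.32 in KO, and with DHT it was 0.13 in WT and 0.23 in KO.

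Partners and coregulators of these receptors were read from a list of 19 genes. Of their 152 values in the 8 treatment and genotype comparisons, 4 were called higher (2.63%) and 13 lower (8.55%), against 2.98% and 3.49% of the values of all genes. The lower ones were mainly the retinoid X receptors. Rxra, the common dimer partner of thyroid receptors, ranged from 132 to 161 CPM in WT_SHAM and from 110 to 128 CPM in KO_SHAM, and from 122 to 153 CPM in WT_ORX and from 98.6 to 112 CPM in KO_ORX. The genotypes did not overlap in either setting, with log2 fold changes of −0.27 (q = 0.004) and −0.42 (q = 8.9e-05). In the spinalis, Rxra gave −0.43 (q = 6.1e-04) without and −0.44 (q = 3.4e-05) with DHT. Rxrg, the isoform most restricted to muscle and brain, gave −0.67 (q = 2.8e-05) and −0.41 (q = 7.0e-04) for KO against WT in the spinalis and −0.43 (q = 2.0e-04) in castrated mice. The sham call of Rxra was lost without KO_SHAM library 2 (q = 0.01) or 6 (q = 0.014) or WT_SHAM library 4 (q = 0.015) or 6 (q = 0.013). Ncoa3, a steroid receptor coactivator, rose with DHT by 0.49 in WT (q = 1.3e-06) and by 0.32 in KO (q = 9.4e-04), with the KO call lost under library-size scaling (0.29, q = 0.023). Lpin1, a PGC-1α coactivator, fell in KO_Empty against WT_Empty (−0.52, q = 8.0e-04), a call that was lost in a fit of those groups alone (q = 0.015). With castration in WT edgeR called 0 of the 19 (4 at an unadjusted p under 0.05, DESeq2 1, limma-voom 0), and the interactions had 0 called by edgeR, DESeq2 and limma-voom, with 4 values at an unadjusted p under 0.05 in edgeR.

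Regulators of Ppargc1a, such as calcineurin, AMPK, p38 and FOXO genes, formed a list of 21, and of 168 values over the 8 comparisons 12 were called higher (7.14%) and 10 lower (5.95%), against the same 2.98% and 3.49%. Mapk14, which encodes p38α, fell with castration by 0.37 in WT (q = 2.2e-06) and by 0.31 in KO (q = 1.1e-04). Ppp3ca, the calcineurin catalytic subunit, rose with castration in WT by 0.45 (q = 3.8e-07) and fell with DHT by 0.63 in WT (q = 3.7e-07) and by 0.37 in KO (q = 0.0012). Foxo3 fell with DHT by 0.64 in WT (q = 1.6e-07) and by 0.60 in KO (q = 2.0e-06). It rose with castration in KO (0.62, q = 0.0014), a call that was lost without KO_ORX libraries 1 and 2 (0.45, q = 0.036). In WT it was not called with castration, though it ranged from 19.3 to 29.7 CPM in WT_SHAM and from 30 to 40.6 CPM in WT_ORX. Prkag3, the muscle-specific γ subunit of AMPK, ranged from 70 to 107 CPM in WT_DHT and from 134 to 171 CPM in WT_Empty, and fell by 0.77 (q = 9.0e-05). In KO it ranged from 164 to 252 CPM with DHT and from 132 to 206 CPM without, and the interaction was 1.09 (q = 6.3e-04); KO_DHT against WT_DHT gave 1.35 (q = 2.0e-08). Mef2c also differed in its response to DHT between genotypes (−0.44, q = 0.01), rising in WT (0.41, q = 1.4e-04). The ORX by genotype interaction had 0 of 21 called by edgeR, 3 at an unadjusted p under 0.05, 1 by DESeq2 and 0 by limma-voom.

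For the thyroid receptors, 19 of 21 genes of hormone handling and response were measured, and of 152 values over the 8 comparisons 3 were called higher (1.97%) and 13 lower (8.55%), again beside 2.98% and 3.49% of all. Dio3, which encodes the deiodinase that inactivates thyroid hormone, was near the detection limit, at 0.0899 to 0.541 CPM in WT_SHAM and 0 to 0.173 CPM in WT_ORX. It ranged from 0.342 to 0.79 CPM in KO_SHAM and from 0.0417 to 0.158 CPM in KO_ORX. It fell with castration by 2.53 in WT (q = 3.9e-04) and by 2.06 in KO (q = 0.0042) on the log2 scale, fitted values that depend on the prior count at such low counts; the KO call was lost with limma-voom (q = 0.012), without KO_SHAM library 1 (q = 0.011) and without KO_ORX library 3 (q = 0.013) or 4 (q = 0.011). Gpd2, the mitochondrial glycerol-3-phosphate dehydrogenase induced by thyroid hormone, ranged from 314 to 401 CPM in WT_Empty and from 152 to 202 CPM in WT_DHT. It fell by 0.99 with DHT in WT (q = 4.7e-09) and was lower by −0.80 in KO_Empty than in WT_Empty (q = 3.2e-06), with an interaction of 0.69 (q = 0.0013). In the gastrocnemius it rose with castration by 0.48 in WT (q = 4.9e-05) and was −0.47 in KO against WT castrated mice (q = 1.8e-04). Hr, a thyroid-responsive corepressor gene, was lower in KO spinalis by −1.01 without DHT (q = 4.5e-04) and −1.40 with it (q = 3.9e-07). Crym, which encodes a thyroid hormone binding protein, was higher in KO_DHT than in WT_DHT by 1.03 (q = 1.5e-04); its interaction of 1.07 (q = 0.02) became 0.91 (q = 0.052) without WT_Empty library 4. With DHT in KO edgeR and DESeq2 each called 0 of the 19 and limma-voom 1, with 11 at an unadjusted p under 0.05.

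Of the steroid receptors, Esr1, for which the ERR family is named, rose with castration by 0.56 in WT (q = 5.5e-07) and by 0.33 in KO (q = 0.0018), and fell with DHT by 0.62 (q = 1.6e-05) and by 0.48 (q = 0.0012).

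Remaining marker lists are given by their calls over the 8 treatment and genotype comparisons, in which 2.98% of the values of all genes were called higher and 3.49% lower. The adipocyte, endothelial and core clock shares were below these in each direction. Of 56 adipocyte values 1 was called (Cfd, lower with DHT in WT), of 40 endothelial values 1 (Pecam1, higher with DHT in WT), of 40 leukocyte values 2 (Csf1r, 5% lower) and of 40 fibroblast values 7 (10% higher, 7.5% lower). The satellite cell genes Pax7 and Myf5 had 3 of 16 called (18.8%), all higher in KO, the tendon genes 1 of 16 (Scx), the core clock 2 of 112 (Cry1 and Cry2), the immediate early genes 4 of 80 (Nr4a3 and Fos) and the skeletal muscle genes 14 of 56 (3.57% higher, 21.4% lower). In fits that left out 1 library, Cfd was called in 10 of 22, Scx in 6 of 22, Cry1 in 20 of 23 and Cry2 in 15 of 22. Brown adipocyte, smooth muscle, Schwann cell and erythroid genes had 0 called by edgeR, DESeq2 and limma-voom, with 1, 0, 1 and 7 values at an unadjusted p under 0.05 in edgeR.

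Likeness was described as Pearson's r across libraries after subtracting group means, over 23 gastrocnemius and 22 spinalis libraries that share dissection and sequencing. For Esrra, the genes with the highest lower r of the 2 muscles among 16642 were Epn1 (0.78 and 0.87), Ctbp1 (0.78 and 0.79) and Ptges2 (0.77 and 0.89). For Perm1 they were Uqcrc1 (0.70 and 0.62), Rbm38 (0.63 and 0.62) and Got1 (0.60 and 0.89), and for Thra they were Gramd4 (0.75 and 0.79), Ptpn4 (0.74 and 0.75) and Slc16a10 (0.70 and 0.84), which encodes a thyroid hormone transporter. For Ppargc1a they were Smtnl1 (0.59 and 0.64), Cep120 (0.57 and 0.55) and Ern1 (0.55 and 0.59). For Esrrg they were Pcp4l1 (0.60 and 0.65), Myl3 (0.58 and 0.57) and Bdh1 (0.63 and 0.56), and for Esrrb Gm5514 (0.75 and 0.64), Egln3 (0.61 and 0.75) and Ldhb (0.61 and 0.71). For Thrb they were Art1 (0.67 and 0.66), Crim1 (0.61 and 0.66) and Psmd9 (0.64 and 0.61), for Ppargc1b Tfip11 (0.77 and 0.69), Cecr2 (0.64 and 0.74) and D1Ertd622e (0.65 and 0.64), and for Nrip1 Cyb561 (0.69 and 0.68), Fam160b1 (0.71 and 0.67) and Larp4 (0.60 and 0.62). Among the members, 1 of 36 pairs, Esrrb with Esrrg, had r over 0.4 in both muscles (0.49 and 0.44). Esrrb with Perm1 had 0.40 and 0.51, and Esrra with Perm1 had 0.35 and 0.68. Thra with Nrip1 was negative in both muscles (−0.59 and −0.31), and Esrra with Thra had 0.55 and 0.17. The share of all gene pairs past this cut is not given here.

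Positions are from the GENCODE annotation of build GRCm38. Esrra lies on chromosome 19 from 6910977 to 6921813 on the minus strand, 2.03 Mb from Actn3, so that alleles near the targeted locus may travel with the knockout. Whether they do was not tested, and Esrra was not called for KO against WT in either muscle. Exons of Esrra share 73 bases with Trmt112 on the opposite strand and 91 bases with Mir6990 on the same strand, and exons of Thra share 263 bases (5.7% of its exon length) with Nr1d1 on the opposite strand. The libraries were stranded by the labels, but the strand setting of the counting was not given in the sources used here, so it is open to which gene reads in those stretches were counted. Nr1d1 itself was not called in any of the 10 comparisons by edgeR.

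Promoter windows from RefSeq (build GRCm38.p6, 250 bases before to 50 after each start) were held for 7 of 9 members. The half-site AGGTCA, searched on both strands, was in 2 of 13 member windows (Perm1 and Thrb), in 7 of 29 windows of the target genes (24.1%) and in 5340 of 32851 windows overall (16.3%). The longer AAGGTCA, which contains it, was in 1 member window (Perm1), in 1 of the 29 target windows (3.45%) and in 4.72% of all windows. The absence of a match says nothing about binding by the receptors. The parts upstream of the annotated starts are shown for Esrra (chr19:6921814-6922058, minus strand) and Perm1 (chr4:156215677-156215867, plus strand), the 2 members that fell with castration. Capitals mark the AGGTCA match, which reads TGACCT on the strand shown and lies at chr4:156215725-156215730, 138 bases before the GENCODE start of Perm1. A match is a description of these letters only.
Esrra: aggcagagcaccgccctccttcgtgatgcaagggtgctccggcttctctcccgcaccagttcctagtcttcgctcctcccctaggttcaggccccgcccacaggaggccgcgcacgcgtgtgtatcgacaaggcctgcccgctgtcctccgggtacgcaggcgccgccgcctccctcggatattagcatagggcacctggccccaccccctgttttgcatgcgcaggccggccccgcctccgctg
Perm1: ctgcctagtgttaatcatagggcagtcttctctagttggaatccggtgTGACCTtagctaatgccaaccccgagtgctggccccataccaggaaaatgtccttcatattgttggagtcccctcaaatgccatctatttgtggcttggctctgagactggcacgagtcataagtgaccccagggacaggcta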

How the data were processed

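RNA from 45 muscle libraries was analysed, 23 from the gastrocnemius and 22 from the spinalis, with depths given in the report. The values are raw gene counts as deposited: per the submitters' notes the authors aligned reads to GRCm39 with STAR 2.7.1b and used SAMtools 1.9, Picard 2.20.2 and featureCounts of Subread 2.0.0. Groups were read from the column headings. The spinalis headings carry a number found in no label, so those columns were placed by group only. In R 4.3.3, edgeR 4.0.16 scaled each table by TMM, kept genes with 0.5 CPM in at least 2 libraries (0 removed) and fitted quasi-likelihood models with 1 mean per group; p was adjusted by Benjamini-Hochberg over all genes of a table, with thresholds of 0.01, or 0.05 for interactions. Levels on the log2 scale used a prior count of 2. Alternatives were DESeq2 1.42.0, limma-voom (limma 3.58.1), library-size scaling, at least 10 counts in every library, the compared groups alone, a replicate block, other thresholds, a prior count of 0.5 and leaving out each library. The fit was tested on simulated data. Names, lengths and positions came from GENCODE annotation of GRCm38. Python 3.11.15 with pandas 2.3.3 and matplotlib 3.10.9 made tables and figures. Named genes are the 9 members, up to 6 called genes of a list per comparison with the largest absolute log2 fold change, defining and most abundant cell type markers, Actn3 and the 3 genes most like each member. Genes whose library values are given beyond the members were chosen after their values were seen, as were Nr1d1, Trmt112 and Mir6990, named for overlap. The members and lists were chosen with earlier results of these data known. Some list genes are not reported here by name, though they are in the counts for the lists.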

Additional observations from a re-analysis of the deposited data

Results flagged for a closer look

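Each member was examined in each of the 8 groups for a library far from the others of its group. This was seen in 0 of 72 such groups, where chance gives about 3.6. Among other genes, chosen after their values were seen, it was seen in 8 of 168, where chance gives about 8.4.

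In the gastrocnemius, Ckmt2 had a log2 CPM of 9.09 in WT_ORX library 6 against 9.32 to 9.42 in the others of its group. Dio3 had −2.86 in WT_SHAM library 2 (others −1.32 to −0.76), and Hr had 4.73 in WT_SHAM library 6 (others 5.22 to 5.48). Rxrg had 5.55 in KO_SHAM library 2 (others 5.67 to 5.71) and 5.10 in KO_ORX library 2 (others 5.38 to 5.48). In the spinalis, Prkag3 had 7.42 in WT_Empty library 35 (others 7.07 to 7.14), Ucp1 had −1.91 in WT_Empty library 7 (others 3.54 to 5.18) and Cidea had 5.92 in KO_DHT library 63 (others 0.10 to 0.89).

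A response to DHT that differed between genotypes in edgeR's interaction test was found for 6 list genes and 0 members. The same test called 3.24% of all 16987 genes. The 6 were 2 of 28 target genes, 2 of 21 regulators of Ppargc1a and 2 of 19 thyroid hormone genes, and the other lists had 0. At the share of all genes, 0 calls among so few members does not set them apart from the lists. On the log2 scale the difference was 1.09 for Prkag3 (q = 6.3e-04), 1.07 for Crym (q = 0.02), 0.69 for Gpd2 (q = 0.0013), 0.41 for Sdhb (q = 0.012), 0.33 for Idh3b (q = 0.025) and −0.44 for Mef2c (q = 0.01). For the members, 0 interactions had an unadjusted p under 0.05 in edgeR, and DESeq2 and limma-voom called 0.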

How the results depend on the processing

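The castration calls of Esrra and Perm1 kept their direction and their side of the threshold in all 7 alternatives and all 23 fits that left out 1 library, in both genotypes; Esrra with DHT in KO kept them in 5 alternatives and 22 such fits. The number of members called with DHT in WT, 1 in the report, was 2 with DESeq2, 0 with library-size scaling, 0 with the compared groups alone and 4 at a threshold of 0.05. For KO against WT, the number called was 1 at 0.05 in SHAM, 1 at 0.05 in ORX, 1 in Empty with each of DESeq2, library-size scaling and 0.05, and 2 in DHT with each of DESeq2 and 0.05. Leaving out 1 library gave 2 to 3 members with ORX in KO, 0 to 1 for KO in ORX, 0 to 2 with DHT in WT, 0 to 1 for KO in Empty and 0 to 2 for KO in DHT. With library-size scaling the ORX by genotype values turned to 0.0078 for Esrra and 0.052 for Perm1, and the DHT by genotype value of Perm1 to 0.0079. Leaving out 1 library gave Perm1 −0.051 to 0.044 for ORX by genotype and −0.10 to 0.045 for DHT by genotype. The cause was not tested. Of 68 member values at an unadjusted p of 0.05 or more, 20 changed direction under an alternative and 23 when 1 library was left out.

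For 175 named log2 fold changes, alternatives left 917 values on the same side of the threshold and in the same direction, 97 weaker, 5 stronger and 3 reversed, and leaving out 1 library gave 3503, 408, 10 and 9. All 72 group levels of the members moved by less than 1 SD with a prior count of 0.5. Over all genes, fitting the compared groups alone gave 484 calls with ORX in KO against 975, 498 with DHT in KO against 784 and 289 for KO in Empty against 722. DESeq2 gave 1201 calls with DHT in KO and 120 for ORX by genotype against 4, where limma-voom gave 10. Leaving out KO_ORX libraries 1 and 2 together, chosen after seeing the data, gave 542 calls with ORX in KO and 363 for KO in ORX against 666. Replicate numbers are shared in the gastrocnemius only: same-numbered libraries of different groups correlated over 0.1 in 6 of 33 pairs (median 0.00697, other pairs −0.00881), so they were not taken as pairs, and a replicate block gave 934, 914, 921 and 627 calls in the 4 treatment and genotype comparisons and changed no member call. A paired analysis of the spinalis could not be made, since its columns carry no replicate number.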
